A study of Homo sapiens with 16 samples.

Results

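CD274, PDCD1LG2, CD80, CD86, CD40, CD38, CD69, SIGLEC1 and FCGR1A encode checkpoint ligands, costimulatory molecules and activation antigens of the myeloid cell surface. H3K27ac was examined at the 80 open regions that the deposited annotation assigns to these 9 genes and places within 50000 bp of their transcription start sites, out of 151654 regions in the whole table. Each region is a 1000 bp window on an ATAC-seq peak, hg38. CD86 held 16 regions, PDCD1LG2 15, FCGR1A 11, CD38 10, CD274 8, CD40 7, SIGLEC1 7, CD80 3 and CD69 3. The annotation placed 45 of them in introns, 25 between genes, 7 at promoters and 3 elsewhere, and 16 lay within 3000 bp of a start site. The windows were not independent of each other, because 41 of the 80 overlapped another one and the 80 formed 56 separate stretches.

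THP-1 is a human monocytic leukemia line, and the mark was measured by ChIP-seq in 4 groups of 2 libraries. WT cells carried Cas9 only and were untreated or given IFNα at 1000 U/ml for 6 h. USP18-/- cells, which carried guides against USP18, were likewise untreated or given 1000 U/ml for 6 h. The methods describe knockouts grown from single sorted cells, so the loss of USP18 and any other difference between this line and WT cannot be told apart. The study describes the replicates as independent samples, and the labels do not say how the cultures were kept apart. Levels below are counts per 1000000 (CPM) after TMM scaling, and 1 count was worth 0.0875 to 0.104 CPM.

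The libraries held 9046141 to 12935453.5 tags in the regions, which was 36.1 to 37.3% of all tags in WT and 38.4 to 42.5% in USP18-/- libraries. H3K27ac at USP18 itself does not test for its protein, and 111 bp past its start site the mark was 7.64 to 8.51 CPM in the 4 untreated libraries of both genotypes. All 8 monocytic markers checked (CD14, CD33, CSF1R, LYZ, ITGAM, SPI1, CD68, CEBPA) had a region within 1000 bp of their start site. Their summed level was 160 to 174 CPM in WT and 214 to 240 CPM in USP18-/- libraries, and its part in the genotype differences below was not tested. SPI1 was the largest part of the sum, at 64.8 to 74.7 CPM in WT and 98.9 to 131 CPM in USP18-/- libraries. Not every marker was higher in USP18-/- libraries. With IFN, LYZ (5.69 and 4.6 CPM) and ITGAM (8.28 and 8.64 CPM) were lower there than in any WT library. CSF1R stayed at 1.45 to 3.29 CPM, and 5 of the 8 markers exceeded 5 CPM in all libraries. At the start-site regions of CD8A, NCAM1, KRT8 and PAX5, which mark T, NK, epithelial and B cells, no library exceeded 2.13 CPM. CD79A, another B cell marker, stood at 4.51 to 7.53 CPM. In bulk chromatin, a change in the share of cells that carry the mark and a change in its amount per cell cannot be told apart.

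CD274 (PD-L1) and PDCD1LG2 (PD-L2) engage PD-1 on T cells and restrain them, while CD80 and CD86 bind CD28 to costimulate and CTLA4 to inhibit. CD40 is a TNF receptor family member through which helper T cells license antigen-presenting cells. CD38 is an ectoenzyme that consumes NAD, CD69 is an early activation antigen, SIGLEC1 is a sialic acid-binding adhesion receptor of macrophages, and FCGR1A is the high-affinity receptor for IgG. Type I IFN activates transcription factors that bind the interferon-stimulated response element (ISRE), and GAS is another IFN-responsive DNA element. USP18 restrains this signaling at the receptor, and H3K27ac marks active promoters and enhancers.

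The sequences below are the central 200 bases, plus strand of hg38, of the 4 regions that were called higher with IFN in USP18-/- cells and held an ISRE core, shown because that element is the one tied to type I IFN. The CD40 region had enough counts for a test only through IFN-treated USP18-/- libraries, where it is high, so its place here followed from that choice. Capitals mark the ISRE core (GAAA, any 2 bases, then GAAA, on either strand).
PDCD1LG2, 16167 bp upstream, ISRE core (chr9:5494279-5494478): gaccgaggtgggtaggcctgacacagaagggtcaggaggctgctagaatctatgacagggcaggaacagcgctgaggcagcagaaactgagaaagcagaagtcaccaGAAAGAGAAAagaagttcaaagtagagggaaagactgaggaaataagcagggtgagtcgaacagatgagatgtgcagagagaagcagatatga
CD86, 14806 bp downstream of a start site, ISRE core on the minus strand (chr3:122092556-122092755): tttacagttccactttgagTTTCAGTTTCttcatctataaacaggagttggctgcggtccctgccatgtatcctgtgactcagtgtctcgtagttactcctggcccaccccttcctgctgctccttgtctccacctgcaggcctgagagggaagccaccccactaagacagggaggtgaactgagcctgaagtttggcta
CD40, 9701 bp upstream, ISRE core (chr20:46108454-46108653): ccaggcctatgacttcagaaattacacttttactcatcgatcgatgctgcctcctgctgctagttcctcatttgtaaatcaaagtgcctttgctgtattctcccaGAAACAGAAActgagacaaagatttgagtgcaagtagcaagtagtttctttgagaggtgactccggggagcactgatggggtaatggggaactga
SIGLEC1, 4395 bp upstream, ISRE core on the minus strand (chr20:3711424-3711623): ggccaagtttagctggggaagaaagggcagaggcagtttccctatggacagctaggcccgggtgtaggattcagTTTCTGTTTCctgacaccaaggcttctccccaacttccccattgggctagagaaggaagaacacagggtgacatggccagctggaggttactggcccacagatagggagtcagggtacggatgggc

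Among all 123276 regions tested, 5.62% held an ISRE core in their central 200 bp, 5.39% held a GAS match (TTCNNNGAA) and 5.61% held the NF-kB consensus. Of the 74 tested regions of the 9 genes, 7 held an ISRE core (9.46%), 5 a GAS match (6.76%) and 6 the NF-kB consensus (8.11%), with none of these matches overlapping another kind. Among the 20 regions that rose with IFN in USP18-/- cells, 4 held an ISRE core, 1 a GAS match and 0 the NF-kB consensus. Among the other 54 the numbers were 3, 4 and 6. The CD40 region at -9701 bp, among the 4 with an ISRE core, had enough counts for a test only through IFN-treated USP18-/- libraries, where it is high. These numbers are therefore a description only, and no enrichment was tested. A match is a description of the letters in this window, and the 16 rising regions without an ISRE core include the start-site windows of CD274, PDCD1LG2 and CD80.

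Counts high enough to test were present at 74 of the 80 regions, and the other 6 never exceeded 13 tags in a library. The regions not tested were CD40 +10498 and +14561, CD69 +10007 and +12001, and SIGLEC1 +9635 and +10709 (bp from the start site, positive in the direction of transcription). A region was called when its log2 fold change exceeded 1 in size and edgeR's quasi-likelihood test gave a p under 0.05 after Benjamini-Hochberg adjustment over the 123276 regions. CD40 -9701 and SIGLEC1 -9290 passed the count filter through 1 group only, IFN-treated and untreated USP18-/- respectively, and held at most 9 and 4 counts in the other libraries. The counts of called regions below include them, and without them 19 rose and 4 fell with IFN in USP18-/- cells, 7 were higher in untreated USP18-/- cells, 20 were higher with IFN, and 12 had a positive difference of IFN effects. The median level of the 74 regions was 4.89 CPM, against 2.22 CPM over all regions tested.

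In WT cells, IFN raised 3 of the 74 regions, all upstream of SIGLEC1, and lowered 0, whereas over all regions 0.343% rose and 0.0389% fell. At an unadjusted p under 0.05, 7 regions were higher and 0 lower (4.5% and 4.44% of all regions), and DESeq2 called the same 3 higher and 0 lower (0.261% and 0.00243%). In USP18-/- cells, IFN raised 20 regions in 15 stretches and lowered 5, beside 7.12% and 4.41% of all regions. The 20 belonged to CD274, PDCD1LG2, CD80, CD86, CD40, SIGLEC1 and FCGR1A, and they included the 3 that rose in WT. The number that fell varied with the libraries, being 11 without IFN-treated USP18-/- replicate 1 and 3 without replicate 2. The median change over the 74 regions was 0.01 on the log2 scale in WT and 0.15 in USP18-/- cells, against -0.01 and -0.01 over all regions.

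The difference between the IFN effects of the genotypes, tested in the same fit, was called at 14 regions. IFN raised H3K27ac more in USP18-/- than in WT cells at 13 of them and changed it in the negative direction at 1, with 4.61% and 2.55% called over all regions. Without WT IFN replicate 2 or without IFN-treated USP18-/- replicate 1, 2 regions were called in the negative direction. All 13 were among the 20 that rose with IFN in USP18-/- cells. Before treatment, USP18-/- cells were higher than WT at 8 regions and lower at 6, beside 5.69% and 10.8% of all regions. Of the 20 regions that rose with IFN in USP18-/- cells, 1 was called higher, 2 lower and 17 neither in USP18-/- cells before treatment. This is near the 5.69% and 10.8% of all regions called higher and lower. With IFN, USP18-/- cells were higher than WT at 21 regions and lower at 13, beside 11.3% and 13.5%. Without WT IFN replicate 1, 7 were lower. When libraries were scaled by the sum of their counts the same comparison gave 15 higher and 21 lower, since that scaling moved the median of all regions to -0.27, and to -0.14 for IFN in USP18-/- cells, -0.16 for the untreated genotypes and -0.13 for the difference. Over all regions that scaling gave 8825 higher and 24119 lower for the genotypes with IFN, in place of 13971 and 16595. It gave 7472 and 7934 for IFN in USP18-/- cells in place of 8781 and 5434, 4990 and 16943 for the untreated genotypes in place of 7020 and 13321, and 4686 and 4829 for the difference in place of 5682 and 3140. The plots of the mark along each locus, of single regions by library and of both IFN effects show these patterns.

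**Figure D1:**
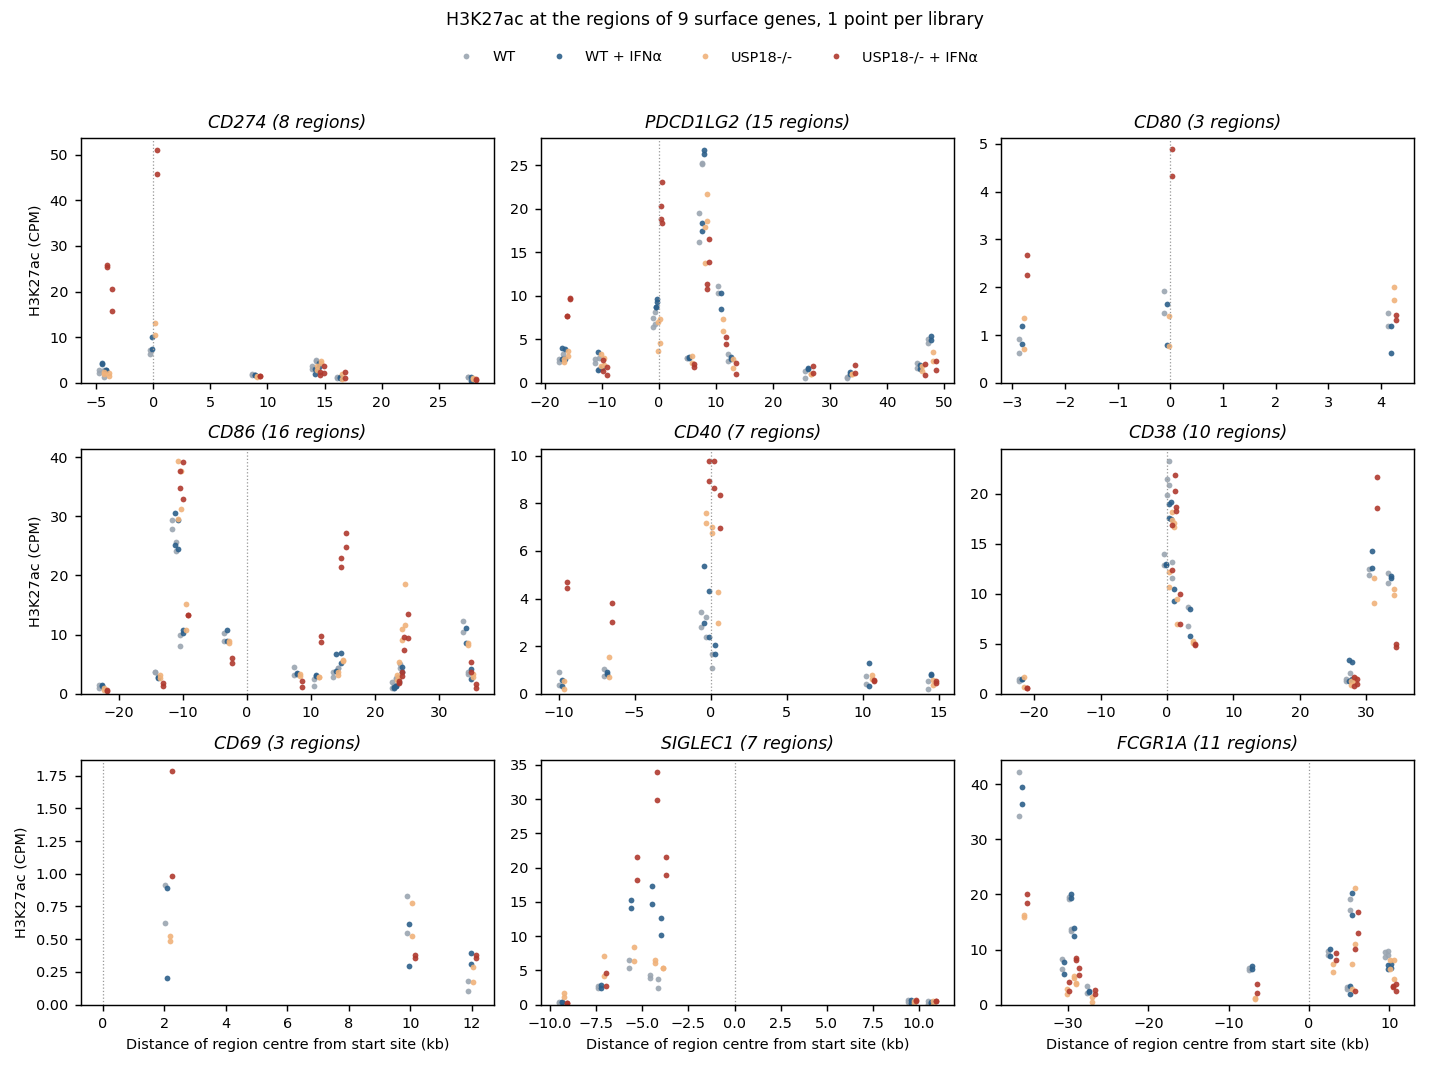
H3K27ac (CPM, linear axis from 0) in every library at the 80 regions of the 9 genes, by distance of the region centre from the start site in kb, positive in the direction of transcription. CD86 is drawn from the downstream of its 2 start sites, points are shifted slightly sideways by group, and the dotted line marks the start site. IFN-treated USP18-/- libraries stand apart at and upstream of CD274 and PDCD1LG2, and both IFN-treated groups stand apart upstream of SIGLEC1.

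The PD-1 ligands lie next to each other on chromosome 9. At the CD274 start site (chr9:5450027-5451027), H3K27ac was 7.26 and 6.37 CPM in untreated WT, 7.35 and 10.1 in WT with IFN, 13.2 and 10.5 in untreated USP18-/-, and 51.0 and 45.7 in USP18-/- with IFN. Both USP18-/- libraries with IFN lay above all 6 others, and the untreated USP18-/- libraries lay above the untreated WT ones. IFN gave a log2 fold change of 2.02 ± 0.14 (SE) in USP18-/- cells (4.06-fold, adjusted p = 3.50e-22) and 0.36 ± 0.19 in WT (adjusted p = 0.60). The 2 effects differed by 1.66 ± 0.24 (adjusted p = 7.07e-08). Before treatment the USP18-/- level was 0.81 ± 0.18 above WT on the log2 scale, with an adjusted p of 1.33e-04 but under the fold threshold.

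Upstream of CD274, the mark at -4407 bp (chr9:5445596-5446596, between genes) was 2.07 and 2.73 CPM in untreated WT, 4.27 and 4.12 in WT with IFN, 2.45 and 1.93 in untreated USP18-/-, and 25.8 and 25.4 in USP18-/- with IFN. Both WT libraries with IFN exceeded both untreated ones, but the change of 0.79 ± 0.28 was not called (adjusted p = 0.235). In USP18-/- cells the change was 3.53 ± 0.21 (11.6-fold, adjusted p = 5.54e-26), and the difference of the effects was 2.74 ± 0.37. The window at -3995 bp, which overlaps it, gave 3.30 ± 0.24 in USP18-/- cells and a difference of 2.85 ± 0.43. The 5 other CD274 regions, from 8994 to 27914 bp past the start site, stayed at 0.412 to 4.98 CPM in all libraries and were called in no comparison.

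PDCD1LG2 held 15 regions, of which 4 rose with IFN in USP18-/- cells. At its start site (-51 bp, chr9:5509994-5510994) the level was 8.19 and 6.83 CPM in untreated WT, 9.34 and 9.68 in WT with IFN, 7.35 and 4.55 in untreated USP18-/-, and 23.1 and 18.4 in USP18-/- with IFN. The USP18-/- libraries with IFN did not overlap any other group. The IFN effect was 1.79 ± 0.18 in USP18-/- cells and 0.35 ± 0.20 in WT, a difference of 1.45 ± 0.27 (adjusted p = 2.90e-05). The overlapping window at -289 bp gave 1.85 ± 0.19 and a difference of 1.51 ± 0.28.

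A second stretch lay between CD274 and PDCD1LG2. The region 16167 bp upstream of PDCD1LG2, which holds the ISRE core shown above, was 2.90 and 3.28 CPM in untreated WT, 2.78 and 3.91 in WT with IFN, 3.15 and 3.68 in untreated USP18-/-, and 9.61 and 9.77 in USP18-/- with IFN. Levels in the first 3 groups overlapped. IFN in USP18-/- cells gave 1.51 ± 0.23, and the effects differed by 1.40 ± 0.37 (adjusted p = 3.94e-03). Its neighbor at -16778 bp rose by 1.57 ± 0.25. The difference there, 1.17 ± 0.39, was lost without any 1 library other than WT IFN replicate 2, at values of 0.93 to 1.30, and also by DESeq2 and with either other scaling. Both windows are nearer to the PDCD1LG2 start site than to that of CD274, and the assignment by distance does not say which gene they serve.

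The strongest PDCD1LG2 signal sat inside intron 1 and did not follow the start site. At +8177 bp (chr9:5518222-5519222) the level was 25.1 and 25.3 CPM in untreated WT, 26.3 and 26.8 in WT with IFN, 18.6 and 21.7 in untreated USP18-/-, and 16.6 and 13.9 in USP18-/- with IFN. Each USP18-/- library lay below every WT library. The change with IFN in USP18-/- cells was -0.40 ± 0.14 (adjusted p = 0.025), under the fold threshold. At +11083 bp USP18-/- cells were lower before treatment by -0.69 ± 0.19 (adjusted p = 2.65e-03), also under the fold threshold.

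**Figure D2:**
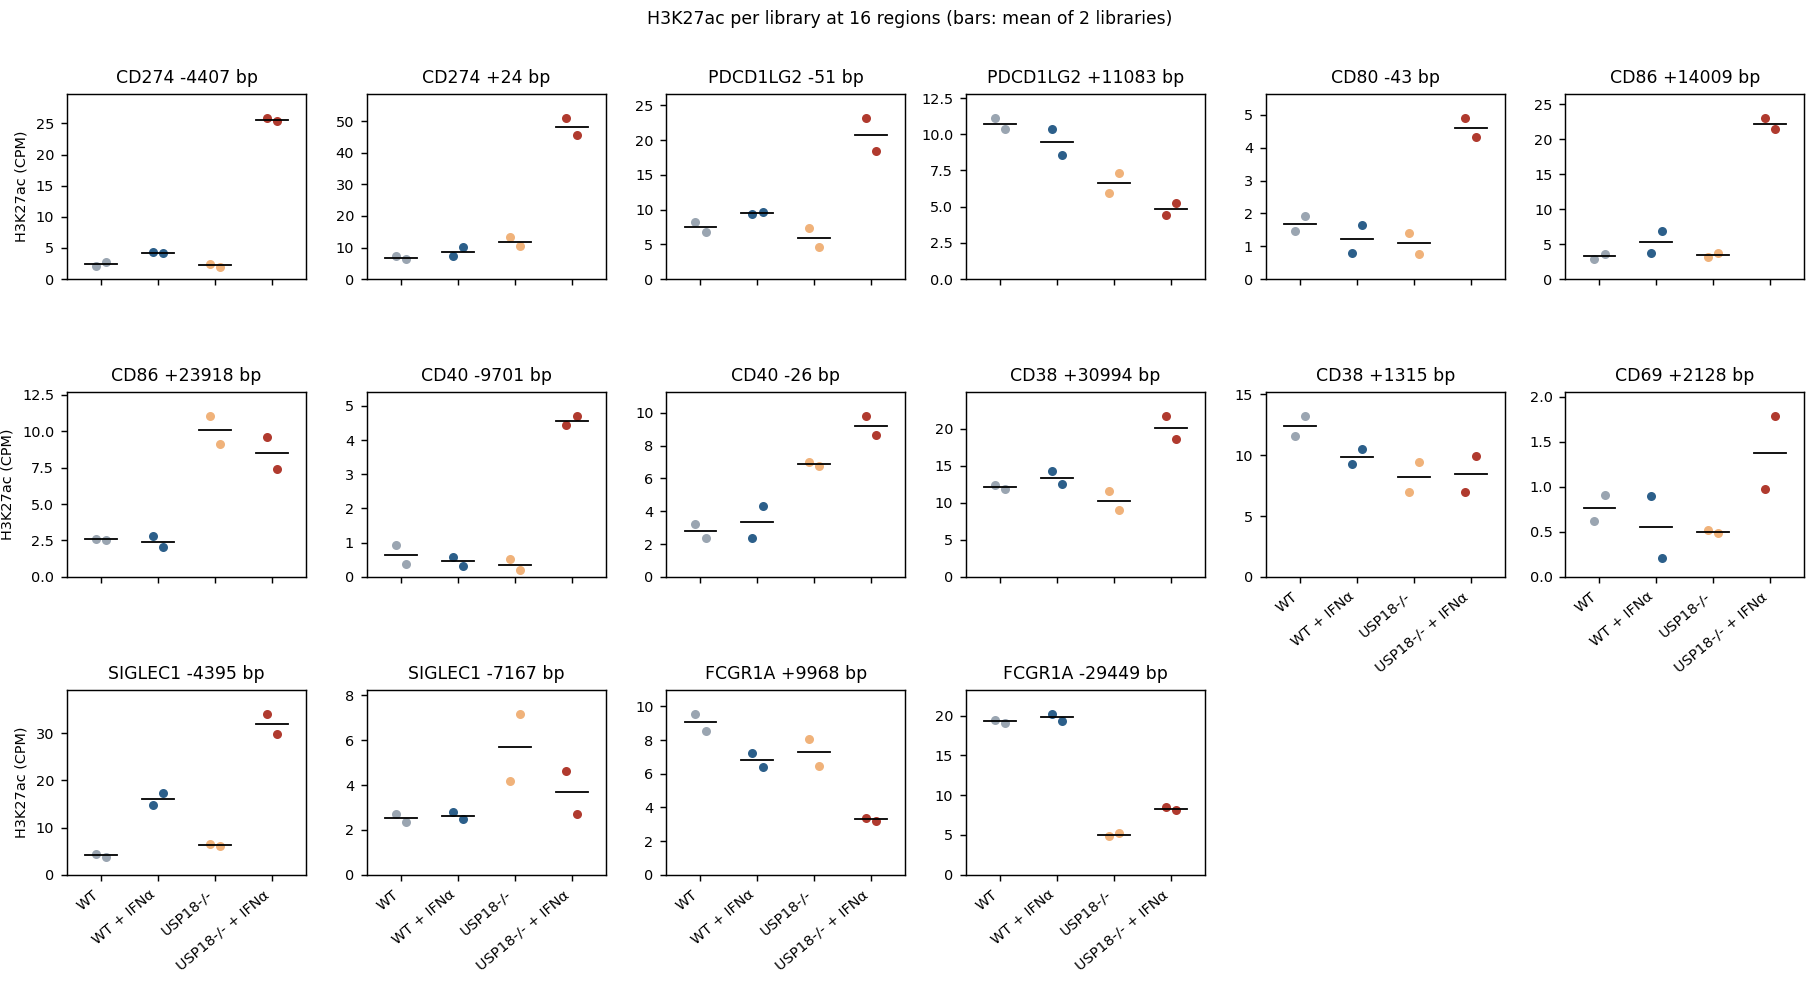
H3K27ac (CPM, linear axes from 0) in each of the 8 libraries at 16 regions, per gene those with the smallest p for IFN in USP18-/- cells and for genotype without IFN, named by gene and bp from the start site, with points for libraries and bars for the mean of 2. IFN-treated USP18-/- libraries are the highest at both CD274 regions, PDCD1LG2 -51 and CD80 -43 bp, SIGLEC1 -4395 bp also rises in WT, and FCGR1A -29449 bp is lower in USP18-/- libraries with and without IFN.

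CD80 had 3 weak regions on chromosome 3. At its start site (chr3:119559177-119560177) the mark was 1.45 and 1.91 CPM in untreated WT, 0.795 and 1.65 in WT with IFN, 1.40 and 0.774 in untreated USP18-/-, and 4.89 and 4.32 in USP18-/- with IFN. The first 3 groups overlapped and the USP18-/- libraries with IFN lay above them. IFN gave 2.06 ± 0.35 in USP18-/- cells (adjusted p = 9.82e-07) and -0.48 ± 0.42 in WT, a difference of 2.53 ± 0.55 (adjusted p = 3.27e-04). The region at -2797 bp rose by 1.27 ± 0.42 (adjusted p = 0.015). That call was lost without untreated USP18-/- replicate 1 and without IFN-treated USP18-/- replicate 1, and DESeq2 gave no adjusted p for it.

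CD86 has 2 start sites 22.5 kb apart in the annotation, and 4 patterns are described among its 16 regions. The highest signal, between the start sites at -11064 bp from the downstream one (chr3:122066285-122067285), was 27.9 and 29.3 CPM in untreated WT, 30.6 and 25.1 in WT with IFN, 39.4 and 29.5 in untreated USP18-/-, and 37.6 and 34.7 in USP18-/- with IFN. IFN-treated and untreated libraries overlapped in both genotypes, and the IFN effects were -0.04 ± 0.12 and 0.07 ± 0.12. The upstream start-site window (-22 bp) was weak, with 1.39 and 1.44 CPM in WT and 0.534 and 0.563 in USP18-/- libraries with IFN. It was called lower in USP18-/- cells with IFN (-1.35 ± 0.56, adjusted p = 0.041), a call lost without any 1 of these 4 libraries.

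A second group, in the intron downstream of the second start site, rose with IFN in USP18-/- cells. At +14009 bp (chr3:122091358-122092358) the level was 2.90 and 3.64 CPM in untreated WT, 3.78 and 6.79 in WT with IFN, 3.15 and 3.68 in untreated USP18-/-, and 23 and 21.4 in USP18-/- with IFN. The last 2 libraries lay far above the other 6. The effect was 2.70 ± 0.20 (6.50-fold, adjusted p = 4.13e-20) in USP18-/- cells and 0.68 ± 0.26 in WT (adjusted p = 0.32), a difference of 2.03 ± 0.34. The overlapping window at +14806 bp, with the ISRE core shown above, gave 2.20 ± 0.17 and a difference of 1.74 ± 0.29. At +10983 bp the rise was 1.69 ± 0.24, while the difference of 1.02 ± 0.41 missed the threshold (adjusted p = 0.10).

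The third group differed by genotype. At +23918 bp (chr3:122101267-122102267) the mark was 2.59 and 2.55 CPM in untreated WT, 2.78 and 2.06 in WT with IFN, 11 and 9.09 in untreated USP18-/-, and 9.61 and 7.42 in USP18-/- with IFN. All 4 USP18-/- libraries exceeded all 4 WT libraries, and IFN-treated and untreated libraries overlapped in each genotype. USP18-/- cells were higher by 1.97 ± 0.24 before treatment (adjusted p = 9.64e-11), and the IFN effect within them was -0.24 ± 0.19. The overlapping windows at +23508 and +24442 bp were higher by 1.68 ± 0.35 and 1.70 ± 0.21. In the fourth group the mark was lower in IFN-treated USP18-/- cells. At +35116 bp it was 2.80 and 3.29 CPM in untreated USP18-/- and 1.60 and 0.939 with IFN, a change of -1.24 ± 0.35 (adjusted p = 4.37e-03) that was lost without IFN-treated USP18-/- replicate 2. Thus within 1 gene IFN in USP18-/- cells raised 3 regions and lowered 1, and 3 others were higher in untreated USP18-/- than in untreated WT cells.

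CD40 showed a genotype difference at the promoter, while weak regions upstream were higher with IFN in USP18-/- cells, under the limits given below. At the start site (-26 bp, chr20:46117728-46118728), where the NF-kB consensus was matched on the plus strand, the level was 3.21 and 2.37 CPM in untreated WT, 2.38 and 4.32 in WT with IFN, 7 and 6.77 in untreated USP18-/-, and 9.79 and 8.64 in USP18-/- with IFN. Every USP18-/- library exceeded every WT library. The untreated difference was 1.31 ± 0.26 (adjusted p = 1.58e-05), and IFN added 0.42 ± 0.20 in USP18-/- cells, which was not called. The windows at -371 and +370 bp overlap this one and were higher in untreated USP18-/- cells by 1.25 ± 0.25 and 1.39 ± 0.34. The window at +370 bp also rose with IFN in USP18-/- cells, by 1.09 ± 0.24, a call lost without untreated or without IFN-treated USP18-/- replicate 1 and with scaling by the sum of counts.

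At -9701 bp (chr20:46108053-46109053), which holds an ISRE core 6 bases past its center, H3K27ac was 0.933 and 0.364 CPM in untreated WT, 0.596 and 0.309 in WT with IFN, 0.525 and 0.193 in untreated USP18-/-, and 4.45 and 4.70 in USP18-/- with IFN. The 6 other libraries held at most 9 counts each. In counts this was 8 over both untreated and 100 over both IFN-treated USP18-/- libraries. The region passed the count filter only through the group in which it is high, so its difference followed from that choice and no test is drawn on. DESeq2 gave no adjusted p for its difference of IFN effects, and the call was lost without untreated WT replicate 1. Without either IFN-treated USP18-/- replicate the region was not called, since it no longer passed the count filter. A weaker region at -6748 bp rose by 1.62 ± 0.38, and that call was lost without untreated USP18-/- replicate 1.

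**Figure D3:**
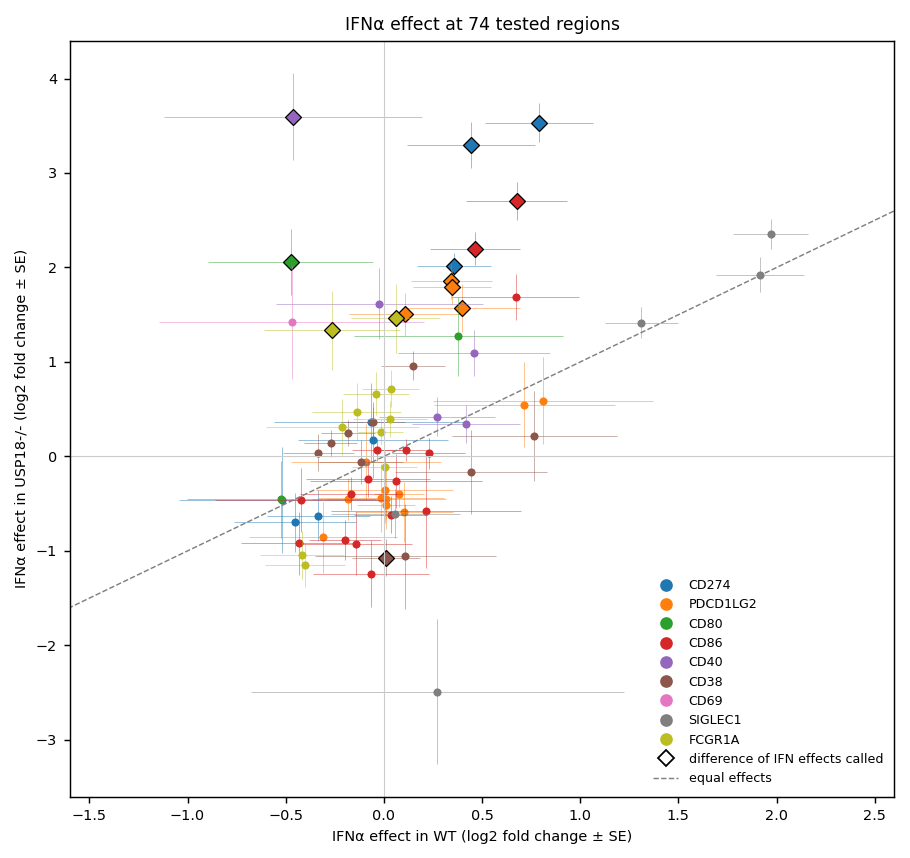
Log2 fold change with IFN in WT (horizontal) against USP18-/- (vertical) for the 74 tested regions, colored by gene, with SE bars; diamonds mark the 14 regions called for the difference of the effects and the dashed line marks equal effects. The 3 rising SIGLEC1 regions lie near the line, while the diamonds of CD274, PDCD1LG2, CD80, CD86, CD40 and FCGR1A lie above it and that of CD38 below. The CD40 diamond is the region at -9701 bp, which passed the count filter only through IFN-treated USP18-/- libraries, so its place followed from that choice.

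CD38 changed little near its start site and in opposite directions in its intron. At +553 bp (chr4:15778318-15779318) the level was 19.9 and 21.5 CPM in untreated WT, 17.6 and 18.9 in WT with IFN, 17.3 and 18.2 in untreated USP18-/-, and 21.9 and 20.3 in USP18-/- with IFN. No comparison of this region was called, and the start-site window (+104 bp) stayed at 10.7 to 16.9 CPM. At +1315 bp untreated USP18-/- cells were lower by -0.60 ± 0.18 (adjusted p = 6.85e-03), under the fold threshold.

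About 3 kb separate 2 intronic CD38 regions that moved apart with IFN in USP18-/- cells. At +30994 bp (chr4:15808759-15809759) the mark was 12.4 and 11.8 CPM in untreated WT, 14.3 and 12.6 in WT with IFN, 11.6 and 9.09 in untreated USP18-/-, and 21.7 and 18.6 in USP18-/- with IFN, an effect of 0.96 ± 0.16 (adjusted p = 4.01e-07) just under the fold threshold. At +33921 bp (chr4:15811686-15812686) it was 12 and 11.1, 11.5 and 11.7, 10.5 and 9.86, and 4.98 and 4.70 CPM in the same order. Both IFN-treated USP18-/- libraries lay below the 6 others there. The change was -1.07 ± 0.20 (adjusted p = 7.11e-06) against 0.01 ± 0.17 in WT, and the difference of -1.08 ± 0.26 (adjusted p = 1.63e-03) was the negative one among the 14.

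CD69 was close to the floor of the assay. Its 1 tested region (+2128 bp, chr12:9758273-9759273) had 0.622 and 0.910 CPM in untreated WT, 0.894 and 0.206 in WT with IFN, 0.525 and 0.484 in untreated USP18-/-, and 0.979 and 1.78 in USP18-/- with IFN. The IFN effect in USP18-/- cells was 1.42 ± 0.60 (adjusted p = 0.074), so a change was not detectable at this depth. No region of CD69 lay closer to its start site.

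SIGLEC1 was the gene of the 9 whose regions rose with IFN in WT as well as in USP18-/- cells. No region covered its start site, and the nearest lay 3923 bp upstream. At -4395 bp (chr20:3711023-3712023), with an ISRE core in its central 200 bp, the mark was 4.36 and 3.82 CPM in untreated WT, 14.7 and 17.3 in WT with IFN, 6.48 and 6.00 in untreated USP18-/-, and 34.0 and 29.9 in USP18-/- with IFN. The 4 groups did not overlap and ranked, from low to high, as untreated WT, untreated USP18-/-, WT with IFN, USP18-/- with IFN. IFN gave 1.97 ± 0.19 in WT (3.92-fold, adjusted p = 4.81e-13) and 2.35 ± 0.16 in USP18-/- cells (5.11-fold, adjusted p = 2.24e-22). The effects differed by 0.38 ± 0.26, which was not called (adjusted p = 0.44), and the genotypes differed by 0.61 ± 0.22 before treatment (adjusted p = 0.022), under the fold threshold.

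Its overlapping window at -3923 bp had effects of 1.91 ± 0.22 in WT and 1.92 ± 0.18 in USP18-/- cells. At -5513 bp the effects were 1.31 ± 0.19 and 1.42 ± 0.17. The differences of 0.01 ± 0.30 and 0.11 ± 0.26 were not called, which does not show that the effects were equal. Farther upstream the pattern changed. At -7167 bp untreated USP18-/- cells (4.20 and 7.16 CPM) were above untreated WT (2.70 and 2.37 CPM) by 1.16 ± 0.28, a call lost without untreated USP18-/- replicate 2. At -9290 bp there were 6 counts in untreated WT, 29 in untreated USP18-/- and 5 in IFN-treated USP18-/- cells, summed over 2 libraries. It passed the count filter only through untreated USP18-/- libraries, so these differences followed from that choice and no test is drawn on.

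**Figure D4:**
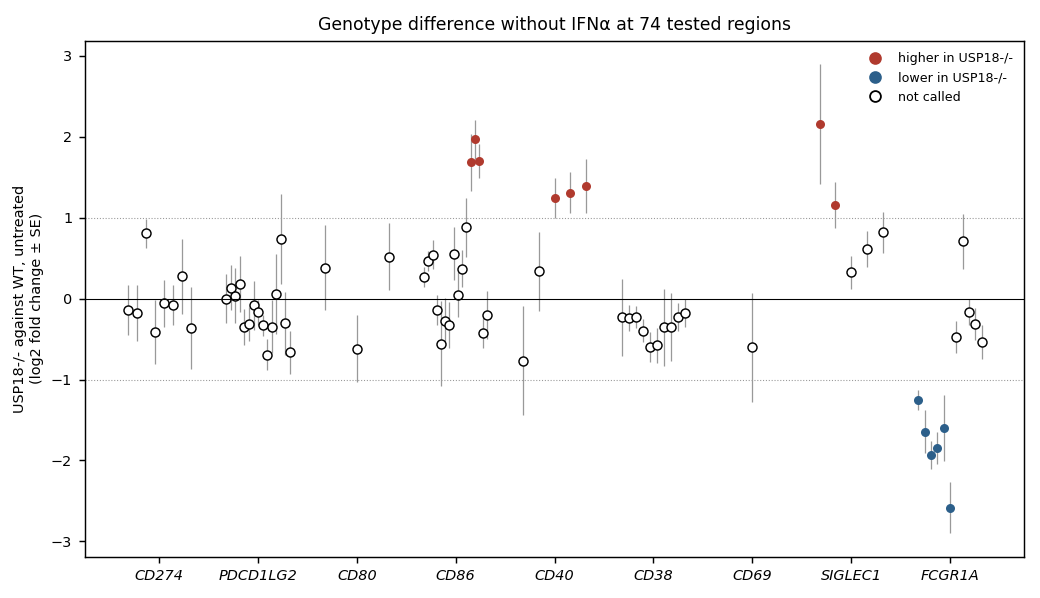
Log2 fold change of USP18-/- against WT without IFN, with SE bars, for the 74 tested regions grouped by gene and ordered by distance from the start site within each gene; filled points were called and dotted lines mark a log2 fold change of 1 in either direction. The 6 regions called lower belong to FCGR1A and the 8 called higher to CD86, CD40 and SIGLEC1. Among the 8, SIGLEC1 -9290 bp passed the count filter only through untreated USP18-/- libraries, so its call followed from that choice.

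FCGR1A showed the reverse genotype difference. The 6 regions lower in untreated USP18-/- cells all lay upstream of it on chromosome 1, in 4 separate stretches from -35582 to -6938 bp. At -29449 bp (chr1:149752745-149753745) the mark was 19.5 and 19.1 CPM in untreated WT, 20.2 and 19.4 in WT with IFN, 4.90 and 5.22 in untreated USP18-/-, and 8.54 and 8.08 in USP18-/- with IFN. All USP18-/- libraries lay below all WT libraries, and IFN-treated USP18-/- libraries lay above untreated ones. The untreated difference was -1.93 ± 0.17 (3.81-fold lower, adjusted p = 9.64e-16). IFN in USP18-/- cells gave 0.72 ± 0.20 (adjusted p = 3.07e-03), under the fold threshold. The highest signal of the gene, at -35582 bp, was lower by -1.25 ± 0.13.

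The largest genotype difference was at -6938 bp (chr1:149775256-149776256), the region with 2 GAS matches. It held 6.64 and 6.19 CPM in untreated WT, 6.96 and 6.38 in WT with IFN, 0.963 and 1.16 in untreated USP18-/-, and 2.14 and 3.76 in USP18-/- with IFN. USP18-/- cells were lower by -2.59 ± 0.32 before treatment. IFN raised the mark in them by 1.46 ± 0.36 to a level still below WT, and the effects differed by 1.40 ± 0.43 (adjusted p = 0.017). The IFN call was lost without IFN-treated USP18-/- replicate 2 (1.00 on the log2 scale). The difference was lost by DESeq2 and without untreated WT replicate 1, WT IFN replicate 2, untreated USP18-/- replicate 1 or IFN-treated USP18-/- replicate 2, at 0.92 to 1.35. At -27171 bp the genotype call was lost without untreated WT or untreated USP18-/- replicate 2. IFN in USP18-/- cells gave 1.34 ± 0.42 and a difference of 1.60 ± 0.54. The first was lost by DESeq2 and without untreated USP18-/- replicate 2 or IFN-treated USP18-/- replicate 1, and the second also without untreated WT replicate 2 or either WT IFN library, at 0.99 to 1.64, and with scaling by the sum of counts (1.47), while DESeq2 gave no adjusted p for it.

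Within and past the gene the order was different. The region nearest the start site (+2820 bp) had 6.00 to 10.1 CPM in all libraries and was not called. At +5196 bp replicates diverged, with 2.80 and 7.35 CPM in untreated and 2.40 and 10.1 CPM in IFN-treated USP18-/- libraries. At the gene end (+9968 bp, chr1:149792162-149793162) the mark was 9.54 and 8.55 CPM in untreated WT, 7.25 and 6.38 in WT with IFN, 8.05 and 6.48 in untreated USP18-/-, and 3.38 and 3.19 in USP18-/- with IFN. IFN lowered it in USP18-/- cells by -1.15 ± 0.23 (adjusted p = 4.62e-05), while the difference from the WT effect was -0.74 ± 0.31 (adjusted p = 0.12). Of the 32-base words in the FCGR1A regions, 71.3 to 89.7% occur elsewhere in hg38, beside medians of 0 to 14.85% at the other 8 genes. The 130 other tested regions within 1000000 bp of the FCGR1A regions had a median untreated genotype difference of -0.41, with 29 called lower, beside medians of -0.19 to 0.33 around the other 8 genes. Around CD69, 16 of 62 were called lower. The part of repeats and of the surrounding chromosome in the FCGR1A difference was not tested.

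Other genes of the same functions were read from lists of related names. Of 22 further checkpoint and costimulatory genes, 21 had regions, and IFN in USP18-/- cells raised 16 and lowered 5 of their 150 tested regions (10.7% and 3.33%, beside 7.12% and 4.41% of all regions), with a median of 0.05. In WT cells a region of LILRB1 rose (1.01 ± 0.21 at +143 bp), and the difference of effects was called at 12 regions in the positive direction (8.00%, beside 4.61%). Of 27 further Fc receptors, siglecs and activation antigens, 24 had regions, and 11 of 110 tested rose and 3 fell (10.0% and 2.73%, beside the same 7.12% and 4.41%), with a median of 0.04. Before treatment USP18-/- cells were higher at 29 and lower at 9 regions of the first list (19.3% and 6.00%) and higher at 25 and lower at 1 of the second (22.7% and 0.909%), beside 5.69% and 10.8% of all regions. The medians were 0.30 and 0.72 against -0.02 over all regions.

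Named examples were the region with the smallest p for each gene. LGALS9, a ligand of the TIM-3 receptor, was raised by IFN in USP18-/- cells by 2.31 ± 0.10 at +420 bp. HAVCR2, which encodes TIM-3, had 8.36 and 8.83 CPM at -4019 bp in IFN-treated USP18-/- libraries and at most 1.24 CPM in any other. This HAVCR2 region met the count filter only because of the libraries where it is high. Its difference followed from that choice and no test is drawn on, though the counts of the first list include it. LILRB1, an inhibitory receptor for MHC class I, rose by 3.94 ± 0.22 at -4312 bp. FCGR3A, another IgG receptor, rose by 1.56 ± 0.18 at -10747 bp and TFRC, the transferrin receptor, fell by 1.05 at -14373 bp. In untreated USP18-/- cells CD276, a B7 family member, was higher by 1.85 ± 0.12 at -42 bp, and HHLA2, also of the B7 family, was lower by -2.97 ± 0.17 at -2406 bp. FCER1G, the signaling chain that partners FCGR1A, was higher by 1.64 ± 0.10 at -88 bp.

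The pattern of the CD274 start site was compared with the start-site regions of 12913 other genes by Euclidean distance over 3 log2 changes (IFN in WT, IFN in USP18-/-, and genotype without IFN). The nearest were XRN1 (distance 0.142), MVP (0.160) and ANKRD53 (0.194). XRN1 had 11.4 and 10.6 CPM in untreated WT, 15.2 and 13.4 in WT with IFN, 17.5 and 20.7 in untreated USP18-/-, and 73.1 and 67.2 in USP18-/- with IFN. MVP and ANKRD53 had IFN effects of 2.13 and 1.98 in USP18-/- cells and 0.27 and 0.51 in WT.

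Ordered by the number of regions that IFN raised in USP18-/- cells, PDCD1LG2 had 4 of 15, CD274 3 of 8, CD86 3 of 16, CD40 3 of 5, SIGLEC1 3 of 5, CD80 2 of 3, FCGR1A 2 of 11, CD38 0 of 10 and CD69 0 of 1. Overlapping windows are counted separately here and genes differ in their number of windows, so the order does not rank the genes by response. At an unadjusted p under 0.05, 27 of the 74 regions were higher and 17 lower, beside 16.6% and 15.7% of all regions, and DESeq2 called 18 higher and 4 lower, beside 5.43% and 3.39%. Across all 5 comparisons 41 of the 74 regions were called at least once and 33 were never called, while 33.9% of all regions were called at least once.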

How the data were processed

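Chromatin from THP-1 cells was precipitated with an H3K27ac antibody in 8 libraries. Per the labels and methods, the authors mapped reads to hg38 with Bowtie2 and used HOMER to sum unnormalized tags over 1000 bp around each peak of a merged ATAC-seq set. The deposited values are estimated counts that are not all whole (52.25% are) and were rounded here. Tool versions and the treatment of multiply mapped reads were not given in the sources used here. The 123276 of 151654 regions that reached 10 counts in 2 or more libraries were scaled by TMM and tested with edgeR 4.0.16's quasi-likelihood test (glmQLFTest, R 4.3.3) with 1 mean per group, all 8 libraries sharing 1 estimate of the spread, and p-values adjusted by Benjamini-Hochberg. Calls needed an adjusted p under 0.05 and a log2 change over 1 in size. Rounded totals of 8910652 to 12778567 counts per library set the precision. Values after ± in the text are standard errors.

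The 9 genes, the lists and the tests were chosen with earlier results of these data known. Regions were named by rule: per gene the nearest to the start site, the highest mean level and the smallest p for IFN in USP18-/- cells and for genotype without IFN, plus all called for IFN in WT or for the difference of IFN effects. Other regions named were chosen after their values were seen. Motifs were searched exactly on both strands of hg38. On simulated data, 132 of 190 3-fold changes were recovered (90 of 90 where the mean reached 30 counts), with 2 false calls among 115701 regions. The simulation gave every region the same spread and changed few regions, in IFN-treated USP18-/- libraries only. Its number of false calls therefore does not carry over to the data. Alternatives were scaling by the sum of counts or by tag totals, DESeq2 1.42.0, no count filter, no fold threshold, a replicate block and leaving out each library. Sequences of other regions are not reported here.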

Additional observations from a re-analysis of the deposited data

Results flagged for a closer look

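The difference between the IFN effects in USP18-/- and WT cells, as a log2 value, was called at 14 regions, which are listed here by bp from the start site. At CD274 it was 2.74 at -4407 bp, 2.85 at -3995 bp and 1.66 at +24 bp. At PDCD1LG2 it was 1.17 at -16778 bp, 1.40 at -16167 bp, 1.51 at -289 bp and 1.45 at -51 bp. At CD80 it was 2.53 at -43 bp, and at CD40 it was 4.06 at -9701 bp. That CD40 value is a fitted one for a region with at most 9 counts in each of 6 libraries, which passed the count filter only through IFN-treated USP18-/- libraries. DESeq2 gave no adjusted p for it and the call was lost without untreated WT replicate 1. Without either IFN-treated USP18-/- replicate this CD40 region no longer passed the count filter. The other values follow. At CD86 it was 2.03 at +14009 bp and 1.74 at +14806 bp. At CD38 it was -1.08 at +33921 bp. At FCGR1A it was 1.60 at -27171 bp and 1.40 at -6938 bp, in windows whose sequence mostly recurs elsewhere in the genome. Neighboring windows of 1 gene overlap in part and are not separate observations. With 2 libraries per group, single libraries were not examined as outliers.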

How the results depend on the processing

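Of the 62 calls at named regions, 47 held under every alternative that could be fitted and none changed direction in 797 comparisons. The other 15 lost the call in 42 of these. The 47 include calls for IFN in USP18-/- cells and for genotype with IFN at the far upstream CD40 region. That region passed the count filter only through IFN-treated USP18-/- libraries, so its calls followed from that choice. Without either of these libraries it could not be fitted, so counting its calls as held does not show that they are stable. DESeq2 lost 3 and gave no adjusted p for 3 others, scaling by the sum of counts lost 6, scaling by tag totals 1, and no filter or the replicate block 0. Calls that scaling by the sum of counts lost included the excess of IFN-treated USP18-/- over WT cells at the start sites of PDCD1LG2 (0.85 at -51 bp) and at CD40 -371 bp (0.89).

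Scaling by the sum of counts gave 8 regions lowered by IFN in USP18-/- cells in place of 5, 21 in place of 13 lower in USP18-/- with IFN, and 2 in place of 1 in the negative direction for the difference of effects. Without a fold threshold, 11 fell with IFN in USP18-/- cells, and 14 were higher and 13 lower in untreated USP18-/- cells. Leaving out each library gave 3 to 11 regions lowered by IFN in USP18-/- cells, 7 to 15 lower in USP18-/- with IFN, and 1 to 2 negative differences. Replicate numbers did not pair the libraries (correlation of deviations 0.00086 to 0.042), and with the replicate block IFN raised 20 and lowered 5 regions in USP18-/- cells, as without it. Depth limits CD69 and the far CD40 and SIGLEC1 regions, where a library held few counts.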
